A study of Mus musculus with 6 samples.

Results

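The circadian clock genes examined here are the 10 genes of the core feedback loop and its nearest outputs, namely *Clock*, *Arntl* (also called *Bmal1*), *Per1*, *Per2*, *Per3*, *Cry1*, *Cry2*, *Nr1d1*, *Nr1d2* and *Dbp*. They were taken by name from a list given for the series, and all 10 were found by Ensembl identifier among the 24190 genes of the count table. RNA was sequenced from MTO54 parental organoids, a line of colorectal cancer organoids from mouse (mouse tumor organoids, MTOs). Their AKP genotype is shared by treated and control cultures. The 3 control samples received complete stem cell medium and 3 samples received Folfiri, a combination of SN38 at 100 nM with 5FU at 50 μg/μl (unit as in the labels), for 2 days. Both groups were given fresh medium 2 days after seeding. SN38, to which irinotecan is converted in the body, blocks topoisomerase I, and 5FU is a pyrimidine analogue that blocks thymidylate synthesis. All samples are of 1 line, and the labels number the replicates without saying how the cultures were split, so p-values measure the spread between these samples.

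In this loop the transcription factors CLOCK and ARNTL bind together to E-box sequences and switch on the Per and Cry genes, whose proteins then return to the nucleus and block their own activation. A second loop runs through the REV-ERB receptors, encoded by *Nr1d1* and *Nr1d2*, which repress *Arntl* and compete with the ROR receptors that activate it. *Dbp* is a direct E-box target and encodes a PAR bZIP factor that passes the rhythm on to D-box sequences. The gut epithelium has such a clock of its own, and it is known for rhythms in proliferation and nutrient uptake.

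Of the 10 clock genes, 4 were far lower in Folfiri-treated MTOs and the other 6 moved by less than 1.6-fold in either direction. *Dbp* was 16.7-fold lower than in control MTOs, *Nr1d1* 4.65-fold, *Per3* 4.6-fold and *Per1* 4.0-fold lower. *Nr1d2*, *Arntl* and *Cry1* fell by smaller amounts, 1.58-fold, 1.44-fold and 1.41-fold, and *Clock*, *Per2* and *Cry2* rose, by 1.48-fold, 1.45-fold and 1.22-fold. In the test across all genes (edgeR's quasi-likelihood test with Benjamini-Hochberg adjustment), 10 of the 10 clock genes passed an adjusted p of 0.05, 3 of them higher and 7 lower. The same test called 79.1% of the 14692 genes tested, 40.3% higher and 38.8% lower, so a call by itself sets no gene apart in these data. At a change of at least 2-fold, 4 of the 10 were called, all of them lower, against 36.3% of all genes called at that size, 19.5% higher and 16.8% lower. The median log2 fold change of the 10 genes was -0.59, beside 0.02 for all genes tested. Treated and control samples did not overlap in any of the 10, which was also true of 81.4% of all genes tested. Each culture was sampled at a single time, so a change in the level of a rhythmic gene and a shift in its phase cannot be told apart, and in bulk RNA the same holds for fewer expressing cells and less RNA per cell.

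**Figure D1:**
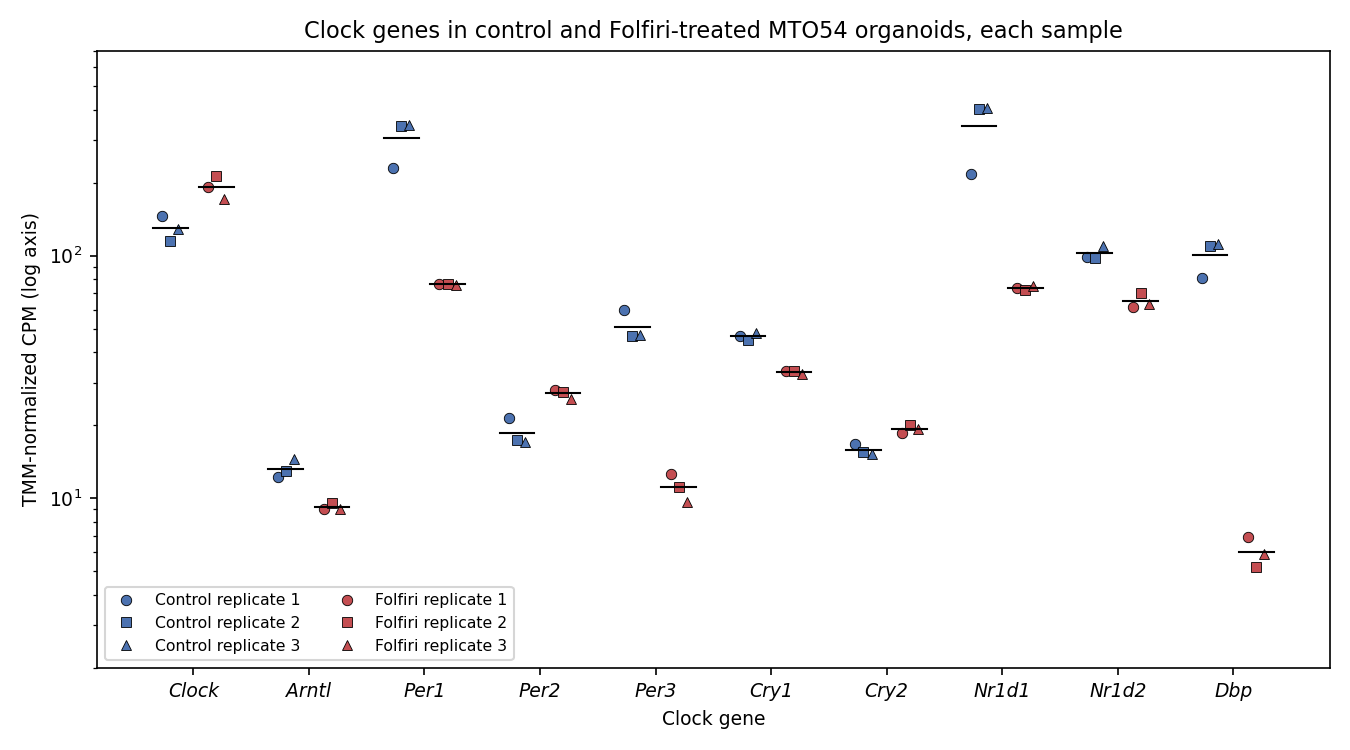
Level of each clock gene in every sample, in TMM-normalized CPM on a log axis, with control samples in blue, Folfiri samples in red, symbols by replicate number and the group mean as a bar. The 2 groups are apart for every gene, the drop is widest for Dbp, and control replicate 1 lies below the other 2 controls for Per1, Nr1d1 and Dbp.

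Depth and markers bear on all of these values. The libraries held from 22103591 to 30098210 counts on genes, and the clock genes from 162 to 10061 counts per sample. The epithelial markers matched the labelled tissue, with *Epcam* at 1252 ± 145 CPM in controls (SD, n = 3), although *Krt20* stood near 1 CPM and *Cdx1* below it. Over the 8 epithelial markers the summed level was from 4189 to 4883 CPM in controls and from 3634 to 3719 CPM after Folfiri, with 3 markers lower and 1 higher. Those called lower were *Epcam*, *Krt8* and *Cdx2*, and *Cdh1* was called higher, beside 79.1% of all genes called. *Cdx2* went from 157 ± 6.88 to 54.5 ± 0.753 CPM. The part of these markers in the results was not tested. The 5 immune markers summed to between 0.514 and 0.612 CPM in controls and between 1.27 and 1.48 CPM after Folfiri, and the 5 fibroblast markers to between 1.08 and 1.44 and between 1.97 and 2.41 CPM. Of these, *Ptprc*, *Dcn* and *Pdgfra* were called higher and *Col1a1* lower, with group means of at most 1.14 CPM, and their part in the results was not tested. No marker was at 0 in all 6 samples, and *Tyrobp* and *Col3a1* were at 0 in every sample of 1 group. Both endothelial markers were tested and neither passed the threshold; *Cdh5* made up most of their sum, of 72.2 to 124.5 CPM in controls and 65.4 to 76.2 CPM after Folfiri, and *Pecam1* stayed under 1 CPM. Mitochondrial genes took from 2.09% to 2.36% of counts in controls and from 3.95% to 4.44% after Folfiri, and the part of this difference in the results was not tested.

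Clock factors act through short promoter sequences. The bases upstream of the 5 clock genes with a match to such letters before the start are shown first. Of these 5 genes, 4 fell and 1, *Cry2*, rose, beside 7 lower and 3 higher among all 10 clock genes. The sequences come from RefSeq on GRCm38, as the 250 bases before an annotated start, 5′ to 3′ on the gene's strand. The windows are chr11:69098699-69098948 for *Per1* (+ strand), chr4:151044666-151044915 for *Per3* (- strand), chr11:98775378-98775627 for *Nr1d1* (- strand), chr10:85185055-85185304 for *Cry1* (- strand) and chr2:92434070-92434319 for *Cry2* (- strand). Capitals mark any match to the E-box CACGTG, the E′-box CACGTT, the D-box TTATGTAA or TTATGCAA, the core of the ROR element TAGGTCA or TGGGTCA, or the cAMP response element TGACGTCA, read on both strands.
Per1: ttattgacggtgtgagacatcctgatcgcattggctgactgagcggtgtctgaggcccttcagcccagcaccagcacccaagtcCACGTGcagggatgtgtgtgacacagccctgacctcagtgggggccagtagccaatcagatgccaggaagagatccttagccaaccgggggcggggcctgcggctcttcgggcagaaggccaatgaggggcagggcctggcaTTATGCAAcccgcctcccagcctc
Per3: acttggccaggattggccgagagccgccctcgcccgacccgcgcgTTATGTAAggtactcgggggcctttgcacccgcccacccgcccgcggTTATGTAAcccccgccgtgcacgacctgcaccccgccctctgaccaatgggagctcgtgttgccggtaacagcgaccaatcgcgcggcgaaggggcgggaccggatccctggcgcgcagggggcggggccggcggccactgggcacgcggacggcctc
Nr1d1: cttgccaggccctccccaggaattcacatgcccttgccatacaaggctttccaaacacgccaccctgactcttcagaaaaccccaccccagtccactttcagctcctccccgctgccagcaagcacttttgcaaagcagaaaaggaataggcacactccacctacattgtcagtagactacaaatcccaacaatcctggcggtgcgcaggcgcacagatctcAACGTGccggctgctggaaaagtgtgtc
Cry1: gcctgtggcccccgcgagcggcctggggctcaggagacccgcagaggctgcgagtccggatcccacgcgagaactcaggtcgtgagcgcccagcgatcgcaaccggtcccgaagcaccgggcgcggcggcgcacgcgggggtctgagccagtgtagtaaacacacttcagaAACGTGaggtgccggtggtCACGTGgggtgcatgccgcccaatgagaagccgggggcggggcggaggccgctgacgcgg
Cry2: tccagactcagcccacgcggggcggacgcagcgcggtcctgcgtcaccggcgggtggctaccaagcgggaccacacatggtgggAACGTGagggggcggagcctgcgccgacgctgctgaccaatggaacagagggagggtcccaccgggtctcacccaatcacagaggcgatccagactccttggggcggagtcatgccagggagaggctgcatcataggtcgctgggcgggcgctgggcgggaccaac
The *Per1* window shown holds an E-box that starts at base -166 and a D-box at base -24, counted from the base just before the start as -1, while a second *Per1* window, at a later start, matched none of the letters. *Per3* holds D-boxes at -205 and -158 and no match to the E-box letters. *Nr1d1* has an E′-box at -28, and *Cry1* has an E-box at -60 with an E′-box at -79. *Cry2* has an E′-box at -166. Windows were found for 9 of the 10 clock genes, *Per2* being the exception, and each was searched over 300 bases, of which 50 follow the start. An E-box was present for 2 of these 9 genes, an E′-box for 3, a D-box for 2, a ROR element for 1 and a cAMP response element for 0. Over all 27018 genes with a window the shares were 8.09%, 5.44%, 1.98%, 7.35% and 2.03%. The *Dbp* window, of the gene that fell most, matched none of the letters searched in it. Of 20 further clock genes with a window, 5 held an E-box, namely *Ciart* and *Tef*, which fell, *Cipc*, which rose, *Sirt1*, which did not pass the threshold, and *Bhlhe41*, which was not tested. A match describes the letters and not a bound site.

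The first comparison concerns the activators. *Clock* (ENSMUSG00000029238, chromosome 5 of GRCm38 from 76209868 to 76304792, - strand) encodes the bHLH-PAS partner with acetyltransferase activity. It measured 146, 115 and 128.5 CPM (counts scaled to a common library size, with TMM factors) in control replicates 1, 2 and 3 and 192, 214 and 171 CPM in Folfiri replicates 1, 2 and 3. Every treated sample lay above every control, and the log2 fold change was 0.57 (SE 0.10, edgeR, adjusted p = 0.000456). *Arntl* (ENSMUSG00000055116, chromosome 7 from 113207465 to 113314126, + strand) encodes the other partner, without which the loop does not run in mice. Its level was 12.2, 13.0 and 14.6 CPM in the controls and 9.05, 9.55 and 9.04 CPM under Folfiri. The treated samples were all lower, with a log2 fold change of -0.52 (SE 0.11, edgeR, adjusted p = 0.00103). With scaling by total counts only, *Arntl* kept its direction but not its call, at -0.24 and an adjusted p of 0.0591 (edgeR). That scaling moves the median of all genes from 0.02 to 0.30, so changes of this size depend on it. The log2 fold changes of the 3 clock genes that rose were larger under it, at 0.84 for *Clock*, 0.80 for *Per2* and 0.56 for *Cry2*.

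The PER proteins form the repressing complex with the CRY proteins, and their genes did not move together. *Per1* (ENSMUSG00000020893, chromosome 11 from 69095217 to 69109960, + strand) responds quickly to light, cAMP and glucocorticoid signals in many tissues. Its level was 229, 342 and 346 CPM in the controls and 76.7, 76.6 and 75.7 CPM under Folfiri. Control replicate 1 was the lowest of the controls and was still far above all 3 treated samples, which lay within about 1 CPM of each other. The log2 fold change of *Per1* was -2.002 (SE 0.14, edgeR, adjusted p = 3.54e-07).
*Per3* (ENSMUSG00000028957, chromosome 4 from 151003652 to 151044665, - strand) is dispensable for the core rhythm and is a robust output of it. It stood at 59.6, 46.5 and 47.2 CPM in controls and at 12.6, 11.1 and 9.62 CPM under Folfiri, giving a log2 fold change of -2.20 (SE 0.13, edgeR, adjusted p = 1.13e-07). Here control replicate 1 was the highest, not the lowest, of the controls. *Per2* (ENSMUSG00000055866, chromosome 1 from 91415982 to 91459324, - strand) is needed for a lasting rhythm in mice. Unlike *Per1* and *Per3* it rose, from 21.4, 17.4 and 17.1 CPM in the controls to 28.1, 27.4 and 25.7 CPM after Folfiri, with a log2 fold change of 0.53 (SE 0.10, edgeR, adjusted p = 0.000688). The 3 treated samples lay above the 3 controls.

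Both Cry genes, which encode the strongest repressors of CLOCK and ARNTL, changed little and in opposite directions. *Cry1* (ENSMUSG00000020038, chromosome 10 from 85131700 to 85185064, - strand) was at 46.6, 44.8 and 48.2 CPM in controls and at 33.4, 33.4 and 32.4 CPM under Folfiri, giving a log2 fold change of -0.49 (SE 0.07, edgeR, adjusted p = 9.63e-05). *Cry2* (ENSMUSG00000068742, chromosome 2 from 92403646 to 92434043, - strand) went from 16.7, 15.5 and 15.2 to 18.6, 20.0 and 19.3 CPM, a log2 fold change of 0.29 (SE 0.09, edgeR, adjusted p = 0.0118). The call for *Cry2* was the least firm of the 10. It was lost without control replicate 2 (log2 fold change 0.27, edgeR, adjusted p = 0.0512), without control replicate 3 (0.25, adjusted p = 0.0509) and without Folfiri replicate 2 (0.27, adjusted p = 0.0522). The noncoding gene *D930015M05Rik* overlaps 295 bases of the *Cry2* exons (4.67%) on the other strand, and rose from 0.328 to 0.666 CPM (edgeR, adjusted p = 0.0155).

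The REV-ERB genes fell, *Nr1d1* far more than its paralogue. *Nr1d1* (ENSMUSG00000020889, chromosome 11 from 98767932 to 98775333, - strand) encodes REV-ERBα, a heme-binding nuclear receptor that recruits corepressors to ROR elements. It measured 218, 402 and 407 CPM in control replicates 1, 2 and 3, and 73.6, 72.3 and 74.8 CPM under Folfiri. The controls spread widely and the treated samples hardly at all, with coefficients of variation of 31.5% and 1.70%. Its log2 fold change was -2.22 (SE 0.20, edgeR, adjusted p = 2.04e-06), and -2.46 without control replicate 1. *Nr1d2* (ENSMUSG00000021775, chromosome 14 from 18204054 to 18239127, - strand) encodes REV-ERBβ, whose function overlaps that of REV-ERBα. It went from 99.2, 98.2 and 109 CPM to 61.5, 70.0 and 63.0 CPM, a log2 fold change of -0.66 (SE 0.08, edgeR, adjusted p = 1.97e-05).
*Thra*, the thyroid hormone receptor gene on the opposite strand, overlaps 263 bases of the *Nr1d1* exons (8.55%), and the library kit does not mark strand, so reads in that stretch cannot be told apart. *Thra* went from 108 ± 9.33 to 80.3 ± 2.72 CPM (means ± SD over 3 samples), with a log2 fold change of -0.43 (SE 0.08, edgeR, adjusted p = 0.000474), which is smaller than the change of *Nr1d1*.

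*Dbp* (ENSMUSG00000059824, chromosome 7 from 45705088 to 45710203, + strand) had the largest change of the 10 genes. Its level was 80.6, 109.7 and 112 CPM in the controls and 6.94, 5.23 and 5.92 CPM after Folfiri, from counts of 2239, 2742 and 2180 against 207, 162 and 195. The log2 fold change was -4.06 (SE 0.15, edgeR, adjusted p = 6.98e-09), and only 0.334% of all genes tested had a log2 fold change as low. *Sphk2*, a sphingosine kinase gene on the opposite strand, overlaps 539 bases of the *Dbp* exons (18%). *Sphk2* was at 17.1 ± 3.75 CPM in untreated and 20.9 ± 0.458 CPM in treated MTOs (SD, n = 3 each) and did not pass the threshold (edgeR, adjusted p = 0.0729). The *Dbp* level after Folfiri was thus below that of *Sphk2*, and whether any of the remaining *Dbp* reads belong to *Sphk2* was not tested.

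**Figure D2:**
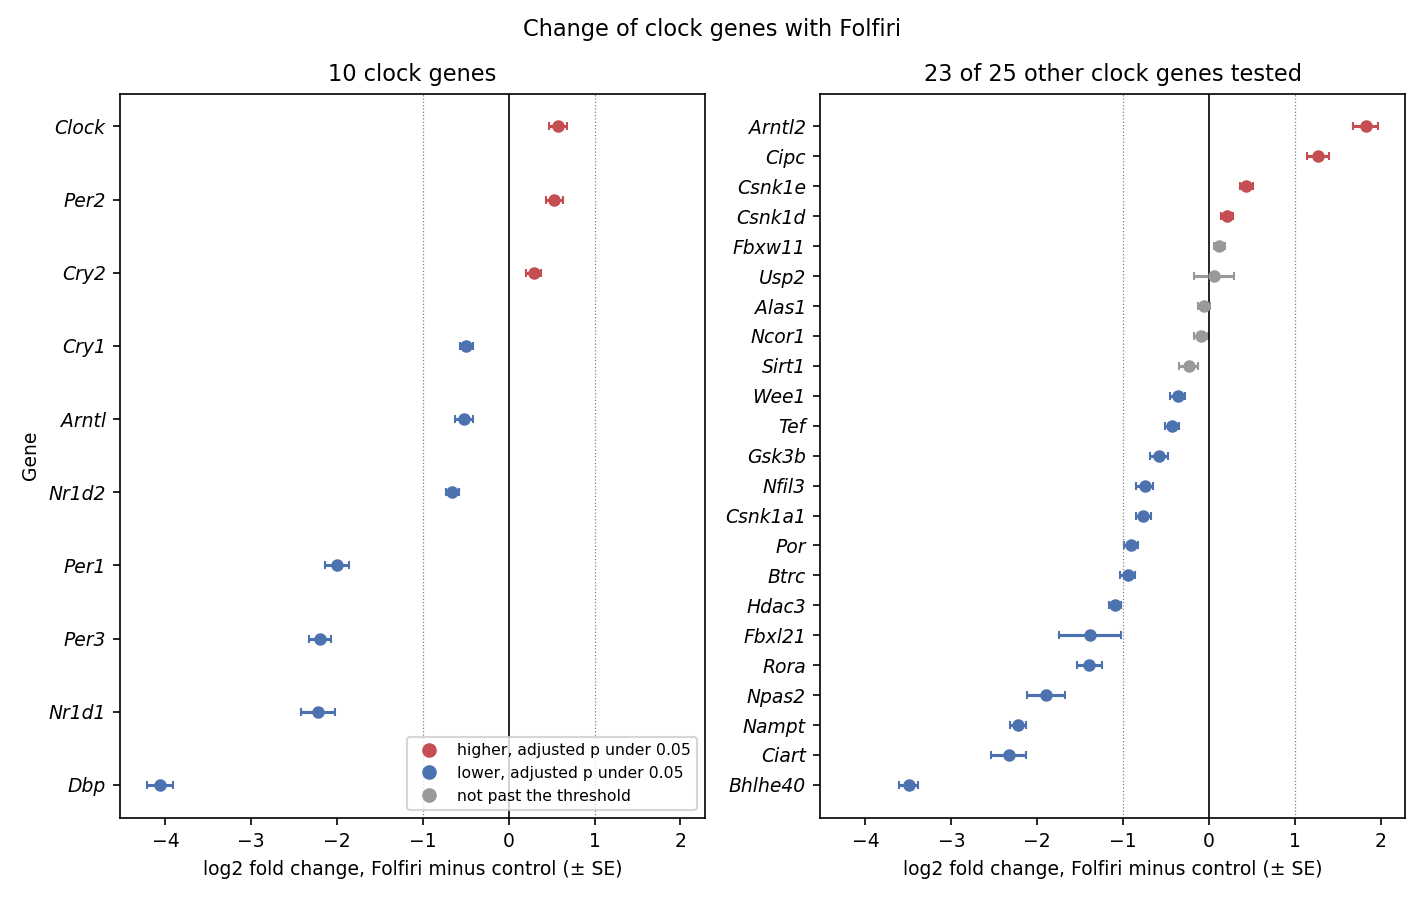
Log2 fold change, Folfiri minus control, with its SE from edgeR, for the 10 clock genes on the left and 23 of the 25 other clock genes that were tested on the right; red is higher, blue lower and grey not past the threshold. On the left 4 genes lie beyond the dotted line at -1 and none beyond 1, and on the right Bhlhe40 has the lowest value, at -3.50.

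A further 28 genes of the pathway, listed by role, were examined in the same fit. Of these, 25 were tested and 20 passed the threshold, 5 higher and 15 lower, beside 79.1% of all genes. At least 2-fold changes were called in 9, 2 higher and 7 lower, beside 36.3%. Their median log2 fold change was -0.58. *Rorb*, *Bhlhe41* and *Hlf* had too few counts to be tested, with group means of at most 0.281 CPM.

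Among the repressors outside the core, 3 of the 4 tested fell and 1 rose, beside 38.8% of all genes called lower and 40.3% called higher. *Bhlhe40*, which encodes the DEC1 protein that competes for E-boxes and also responds to hypoxia, had 995, 1245 and 1215 CPM in the controls and 110.0, 97.7 and 98.2 CPM after Folfiri. That is an 11.3-fold drop, with a log2 fold change of -3.50 (SE 0.11, edgeR, adjusted p = 3.17e-09). *Ciart*, also called Chrono, represses CLOCK and ARNTL and is itself an E-box target. It went from 34.3, 62.4 and 62.6 CPM to 11.2, 9.59 and 10.8 CPM, a log2 fold change of -2.33 (SE 0.21, edgeR, adjusted p = 1.91e-06), with control replicate 1 again the lowest of the controls. *Cipc*, which encodes a CLOCK-interacting inhibitor, rose from 17.3 ± 3.67 to 41.8 ± 1.54 CPM (means ± SD over 3 samples), with a log2 fold change of 1.27 (SE 0.13, edgeR, adjusted p = 5.55e-06).

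The paralogues of the activators moved in opposite directions. *Npas2*, which can stand in for *Clock*, fell from 4.80 ± 0.992 to 1.30 ± 0.312 CPM (means ± SD over 3 samples), with a log2 fold change of -1.90 (SE 0.22, edgeR, adjusted p = 1.38e-05). *Arntl2*, the paralogue of *Arntl*, rose from 2.87 ± 0.476 to 10.3 ± 0.646 CPM, a log2 fold change of 1.83 (SE 0.15, edgeR, adjusted p = 8.76e-07). *Rora*, which encodes a ROR receptor, fell from 20.9 ± 1.90 to 7.99 ± 1.66 CPM (log2 fold change -1.39, edgeR, adjusted p = 7.75e-06). Of the PAR bZIP factors related to *Dbp*, *Tef* fell by a much smaller amount than *Dbp*, with a log2 fold change of -0.43 (SE 0.08, edgeR, adjusted p = 0.000439).

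Genes for the enzymes that act on clock proteins moved in both directions. Across all genes tested, 40.3% were called higher and 38.8% lower, and 16.8% were called lower by at least 2-fold. Of 8 genes for kinases and ubiquitin ligase subunits, 3 rose and 4 fell, 1 of them by at least 2-fold. That one was *Fbxl21*, which encodes an F-box protein and was named after its values were seen, since its level was below 1 CPM. It fell from 0.611 ± 0.103 to 0.238 ± 0.101 CPM, with a log2 fold change of -1.38 (SE 0.37, edgeR, adjusted p = 0.00493). *Csnk1e*, a casein kinase that marks PER proteins for breakdown, rose by a log2 fold change of 0.44. *Btrc*, the subunit that recognises phosphorylated PER, had a log2 fold change of -0.95, and *Csnk1a1*, another casein kinase, -0.76. *Fbxw11*, the paralogue of *Btrc*, stood at 159 ± 7.30 and 174 ± 3.80 CPM and did not pass the threshold (edgeR, adjusted p = 0.118), although it was called higher with total counts only (log2 fold change 0.40, adjusted p = 0.000123) and with upper quartile factors (0.18, adjusted p = 0.0227). *Hdac3*, the deacetylase that REV-ERB receptors bring to their targets, fell from 85.9 ± 1.199 to 40.3 ± 0.665 CPM (means ± SD over 3 samples), with a log2 fold change of -1.09 (SE 0.07, edgeR, adjusted p = 1.58e-07). *Ncor1*, the scaffold that joins them, was at 224 ± 12.2 and 209.6 ± 17.97 CPM, with an adjusted p of 0.313 in the edgeR test (log2 fold change -0.09), but was called higher with total counts only (0.18, adjusted p = 0.0447). *Sirt1*, an NAD-dependent deacetylase, had an adjusted p of 0.0607 (log2 fold change -0.24), and of 0.0020 without control replicate 1 (-0.33).

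Among 5 genes of enzymes under clock control, 3 fell, beside 38.8% of all genes tested called lower. Of these 3, *Wee1*, a cell cycle kinase gene, lost its call with total counts only (log2 fold change -0.37, and -0.09 under that scaling). *Nampt*, the rate-limiting enzyme of NAD salvage, went from 433, 514 and 530 CPM to 109, 105 and 102 CPM, a log2 fold change of -2.23 (SE 0.09, edgeR, adjusted p = 1.13e-08). *Por*, the electron donor of cytochrome P450 enzymes, fell, with a log2 fold change of -0.91 (SE 0.09, edgeR, adjusted p = 3.41e-06). *Alas1*, the first enzyme of heme synthesis, was at 48.0 ± 0.706 and 46.2 ± 1.55 CPM, and *Usp2*, a deubiquitinase, at 1.45 ± 0.436 and 1.53 ± 0.103 CPM; neither passed the threshold (edgeR, adjusted p = 0.494 and 0.811). With total counts only, *Alas1* turned from -0.05 to 0.22 and was called higher (edgeR, adjusted p = 0.0270).

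To set the genes beside each other, CPM was divided by the kilobases of exons annotated for each gene, with the limit that exons of unused transcripts count as length. In controls the order of this level was *Nr1d1* (111), *Per1* (54.3), *Dbp* (33.7), *Nr1d2* (18.9), *Cry1* (13.9), *Clock* (9.46), *Per3* (5.32), *Per2* (3.18), *Cry2* (2.498) and *Arntl* (1.76 CPM per kilobase). The samples of no 2 neighbours in this order overlapped. After Folfiri the order became *Nr1d1* (23.9), *Clock* (14.03), *Per1* (13.6), *Nr1d2* (11.99), *Cry1* (9.91), *Per2* (4.62), *Cry2* (3.06), *Dbp* (2.01), *Arntl* (1.23) and *Per3* (1.16 CPM per kilobase). *Clock* could not be ranked there against *Per1* or *Nr1d2*, nor *Arntl* against *Per3*, since their samples overlapped. *Dbp* moved from the third place to the eighth. *Clock* moved up from the sixth place to one that could not be told from those of *Per1* and *Nr1d2*, below *Nr1d1* and above *Cry1*.

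**Figure D3:**
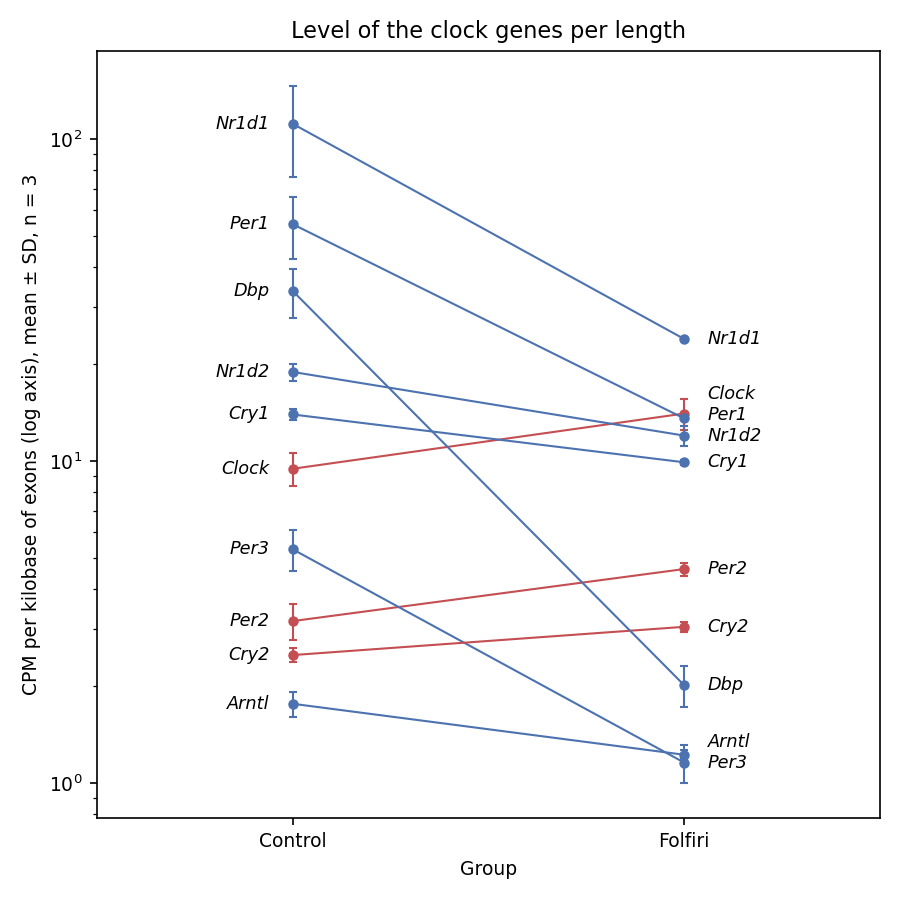
Mean level of each clock gene in CPM per kilobase of annotated exons, on a log axis, in control and Folfiri samples, with SD over 3 samples as error bars and lines joining the same gene. Red lines rise and blue lines fall; the range of levels narrows from 1.76 to 111 in controls to 1.16 to 23.9 after Folfiri.

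Within gene families the share of each paralogue was compared as well. Shares were taken of the summed level per kilobase and compared by exact two-sided permutation tests, in which 3 samples against 3 cannot go below p = 0.1. *Per1* made up 80.5%, 88.6% and 88.7% of the Per sum in the controls and 69.0%, 70.0% and 71.4% under Folfiri. The share of *Per2* rose from 7.24%, 4.33% and 4.22% to 24.3%, 24.1% and 23.3%. *Per3* took 12.3%, 7.05% and 7.08% of the sum in untreated MTOs and 6.67%, 5.96% and 5.32% in treated ones. The difference of its means, -2.82 percentage points, was -1.09 without control replicate 1. The Per sum itself went from 62.8 ± 10.6 to 19.3 ± 0.462 CPM per kilobase. In the pair of *Cry1* and *Cry2*, the share of *Cry1* was 84.8% ± 0.858 in controls and 76.4% ± 0.732 after Folfiri, and in the pair of REV-ERB genes *Nr1d1* held 84.7% ± 4.55 and 66.6% ± 1.86.
*Arntl* held 77.7% ± 4.36 of the sum with *Arntl2* in controls and 40.4% ± 1.71 after Folfiri, so that *Arntl2* had the larger part in each treated sample and the smaller part in each control. *Clock* held 90.5% ± 1.05 of the sum with *Npas2* in controls and 98.1% ± 0.425 after Folfiri. For all 7 shares tested the groups did not overlap and the exact permutation p was 0.1, also 0.1 after Benjamini-Hochberg adjustment, the smallest value that this design allows.

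**Figure D4:**
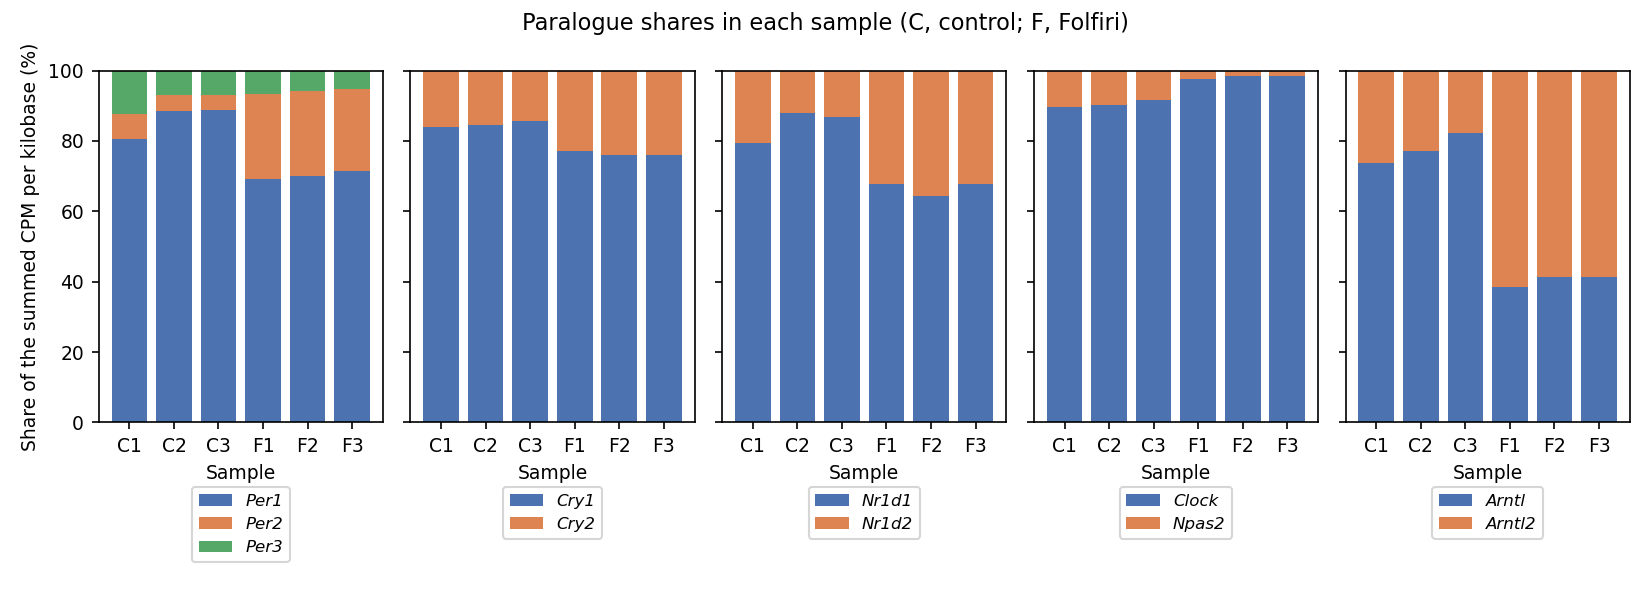
Share of each paralogue in the summed CPM per kilobase of its family, in percent, for control samples C1 to C3 and Folfiri samples F1 to F3. Arntl2 passes Arntl in the 3 treated samples, and the part of Per2 in the Per sum grows from under 8% to over 23%.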

How the data were processed

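The 6 RNA-seq libraries of MTO54 organoids were 3 control and 3 Folfiri, grouped by the titles in the labels. The authors aligned reads with STAR 2.5.2 to GRCm38 with GENCODE vM25, sorted them with Sambamba and counted them per gene with Rsubread; the deposited values are raw counts, and whether counting used strand is not given in the sources used here. The labels and methods give 2 days of treatment, and a legend of the study gives another duration.

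Symbols, positions and exon lengths came from GENCODE vM21 on the same build, in which 24168 of the 24190 identifiers were found. Counts were tested with edgeR 4.0.16 in R 4.3.3, with its default expression filter, TMM scaling, the quasi-likelihood test and Benjamini-Hochberg adjustment over 14692 genes, at a threshold of 0.05. The SE is the log2 fold change divided by the square root of F. Levels are TMM-normalized CPM. Shares were tested by exact permutation in scipy 1.17.1. Intervals from counts would cover counting error only, and none are given. Replicates differed by more than the sampling noise, with a chi-square per degree of freedom of 3.55 to 23.7 over pairs. The procedure was also run on simulated data in which most genes were unchanged. That setting differs from these data, so the run does not bear on the scaling used here.

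The 10 genes and the list of 28 others were chosen with earlier results of these data known. Named in the text are all 10, their exon-overlapping neighbours and, per role and direction, up to 2 other clock genes with the largest change among called genes with separate groups and a mean of at least 1 CPM; *Wee1*, *Csnk1d* and *Fbxl21* were chosen after their values were seen, and others named did not pass the threshold or were not tested. *Gm45355*, which overlaps 33 bases of *Arntl* exons, was not analysed here, and a few named-gene results are left out of the text and plots. Alternatives were DESeq2 1.42.0 size factors and its Wald test, total counts, upper quartile scaling, other filters, a replicate block, leaving out each sample, and shares without length.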

Additional observations from a re-analysis of the deposited data

How the results depend on the processing

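All 10 clock genes kept their direction under every alternative run, and 126 of 130 values also kept their side of the threshold; the other 4 are the losses of *Arntl* and *Cry2* given above. Scaling by total counts alone moved the all-gene median to 0.30 (log2), and 63.3% rather than 51.0% of calls were higher. The median log2 fold change of the clock genes was then -0.31 in place of -0.59, and 9 of the 10 were called, 3 higher and 6 lower. The distance of that median to the median of all genes was -0.61 under both. Among the other clock genes, *Ncor1*, *Sirt1* and *Alas1*, not called with TMM factors, changed sign with total counts only (0.18, 0.043 and 0.22, edgeR adjusted p = 0.0447, 0.701 and 0.0270), so that *Ncor1* and *Alas1* were called higher, while *Wee1* lost its call (-0.09). *Alas1* changed sign with upper quartile factors too, with no call (0.0011). Scaling by total counts called 8 of the other clock genes higher and 14 lower, in place of 5 and 15. *Fbxw11* gained a call with that scaling and with upper quartile factors, and *Sirt1* without control replicate 1 and with no filter on low counts (edgeR, adjusted p = 0.0489), where *Csnk1d* lost its call (0.0647). Leaving out one replicate at a time, *Usp2* ranged from -0.11 to 0.36. Without one replicate, from 11021 to 12312 genes, 9 or 10 clock genes and 20 or 21 other clock genes were called, and the clock median lay between -0.62 and -0.55. Without length, the shares of *Cry1*, *Nr1d1*, *Clock* and *Per3* differed between groups by -11.5, -22.8, 2.88 and -4.35 percentage points in place of -8.37, -18, 7.65 and -2.82.

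Same-numbered samples did not deviate together from their group means (r = 0.03, -0.12 and 0.04 over tested genes for numbers 1, 2 and 3). Samples with different numbers gave r from -0.12 to 0.12. With 3 samples per group these values cannot show whether same-numbered cultures were handled together. With the replicate block, 11499 genes were called in place of 11623, with 10 of the 10 clock genes and 20 of the other clock genes, and the clock median was -0.59.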

Other observations

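The controls differed among themselves in several clock genes. Control replicate 1 differed from the mean of the other 2 controls by -0.89 on the log2 scale for *Nr1d1*, -0.86 for *Ciart*, -0.59 for *Per1*, -0.46 for *Dbp* and -0.31 for *Bhlhe40*, and lay above it for *Per2* (0.31), *Per3* (0.35), *Npas2* (0.48) and *Cipc* (0.50), with 0.1 CPM added to each value. Among all genes tested, 3.26% lay as far from the other controls as *Nr1d1* in this sample and 10.4% as far as *Per1*. The median distance over the 10 clock genes was 0.28 in control replicate 1, beside 0.21 over all genes tested, and 0.17 in each of the other controls, beside 0.12 and 0.13. In the Folfiri samples it was from 0.04 to 0.06, beside 0.09 to 0.12. Of the 10 clock genes, 9 varied more among controls than among treated samples, as did 65.4% of all genes tested, with coefficients of variation from 3.66% to 31.5% in controls and from 0.719% to 14.3% after Folfiri. Times of sampling within the day are not given in the sources used here.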
